A study of Homo sapiens with 8 samples.

Results

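The 10 receptor tyrosine kinases EGFR, ERBB2, ERBB3, MET, AXL, PDGFRA, PDGFRB, FGFR1, DDR1 and EPHA2 were followed in HGC27 cells, as 10 of the 25435 genes of a table of read counts. They were chosen by name, from receptors known for growth factor, matrix and ephrin signalling, several of which have been discussed elsewhere as effectors of mutant p53. The line, derived from a human gastric carcinoma and long established, is labelled as having no p53 of its own, so every group shares that background. Of the 4 groups, 3 overexpressed a p53 mutant (R273H, R248Q or R175H) and the control overexpressed GFP, each with 2 libraries, 8 in all. R273H and R248Q alter residues through which p53 contacts DNA, whereas R175H destabilises the fold of its DNA-binding domain. The series title speaks of knockout and knockdown of p53, but the labels and the design text describe overexpression, which was followed here. Neither the vector and promoter of the introduced genes, nor whether the cells were clones or pools, is given in the sources used here.

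A receptor tyrosine kinase spans the cell membrane, binds a ligand outside the cell and, on pairing with another receptor, phosphorylates tyrosines of its own tail. Adaptor proteins dock there and pass the signal to RAS and ERK and to PI3K and AKT, while ubiquitin ligases, phosphatases and endocytic sorting end it or return the receptor to the surface. In gastric cancer ERBB2, MET and EGFR are known as amplified oncogenes, and mutant p53 has been described to promote recycling of EGFR, MET and integrins, a step that mRNA counts do not show.

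Total counts were 6800463 to 11788035 per library. Values are given as CPM, the count of a gene relative to a fixed total, after TMM scaling, a correction of library size that moved it little here (factors 0.989 to 1.01). Levels of different genes are compared only as RPKM, which divides the CPM by the length of all annotated exons of a gene in kilobases. The GFP libraries stood apart from each other more than those of any mutant: a chi-square over genes, divided by its degrees of freedom, was 1.21 to 1.6 between replicates of a mutant and 5.73 between those of GFP. GFP replicate 1 had less of long transcripts than GFP replicate 2, with a median log2 difference (replicate 1 minus replicate 2) of -0.15 over 2370 genes of 8000 nt or more and 0.15 over 1260 genes shorter than 2500 nt. The libraries are numbered in the labels without a statement that they came from separate cultures, so the p-values measure only the spread between these libraries.

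The cells carried few marks of gastric epithelium. Of the 9 gastric markers in the table, 8 had at most 2 counts in any library, TFF1, TFF2, GKN1, GKN2 and PGC being at 0, and the 9th, PSCA, had 8 to 19 counts. Among the general epithelial markers EPCAM, CDH1, KRT18 and KRT19 had at most 3 counts, whereas CLDN7, a tight junction gene, had 74 to 115 counts (6.99 to 13.6 CPM) and KRT8 3 to 39 counts. The mesenchymal cadherin CDH2 had 2 to 10 counts. The intermediate filament gene VIM (4610 to 5730 CPM) and the collagens COL3A1 (2470 to 2840 CPM) and COL1A1 (1290 to 1890 CPM) were abundant in every library. The summed level of the 10 fibroblast and mesenchymal markers was 10000 to 10100 CPM in R273H, 9650 to 9810 CPM in R248Q, 10200 to 10300 CPM in R175H and 9320 to 9730 CPM in GFP. Of the 9 of these markers tested against GFP, COL1A1 rose and ACTA2 fell in R273H (median log2 fold change -0.01), COL1A1 rose and ACTA2 and THY1 fell in R248Q (median -0.03), and VIM rose and ACTA2, SPARC and THY1 fell in R175H (median -0.09). The sum of the 10 general epithelial markers was 10.5 to 10.7 CPM in R273H, 10.8 to 12.7 CPM in R248Q, 14.4 to 15.6 CPM in R175H and 11 to 11.1 CPM in GFP. Only CLDN7 and KRT8 of these were tested. Against GFP, neither was called in R273H (median log2 fold change 0.24), KRT8 rose in R248Q (median 0.6), and CLDN7 rose in R175H (median -0.5). Against R175H, KRT8 was called higher and CLDN7 lower in both R273H and R248Q. The part of these shifts in the receptor values was not tested. In bulk libraries, fewer cells that express a receptor and less of its RNA per cell cannot be told apart.

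Per exon length, ERBB2 had the highest level of the 10 receptors, with a mean of 11.9 RPKM over the 8 libraries (range 10.7 to 12.4). AXL (6.75 RPKM, range 5.86 to 8.79), EPHA2 (6.53 RPKM, range 5.18 to 7.78) and DDR1 (6.26 RPKM, range 5.53 to 6.74) came next, with overlapping ranges. MET (4.34 RPKM, range 3.18 to 5.35) and PDGFRA (3.98 RPKM, range 3.27 to 4.29) also overlapped each other. PDGFRB (1.61 RPKM, range 1.02 to 2.14) and ERBB3 (0.568 RPKM, range 0.444 to 0.739) were lower without overlap. EGFR (0.0592 RPKM) and FGFR1 (0.0172 RPKM) were near the limit of detection. With the longest transcript as the length in place of all exons, ERBB2 was still first, at 25 RPKM. DDR1 then stood at 13.8 RPKM, above AXL at 7.34 RPKM, and PDGFRA at 5.89 RPKM, above MET at 4.6 RPKM.

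Set among 58 receptor tyrosine kinases, ERBB2 ranked 7, AXL 9, EPHA2 10, DDR1 12, MET 15, PDGFRA 17, PDGFRB 27, ERBB3 34, EGFR 39 and FGFR1 43 by mean RPKM. These ranks use the length of all exons and were not recomputed with the longest transcript. The receptors above ERBB2 were PTK7 (41.2 RPKM), a pseudokinase of Wnt signalling, the FGF receptors FGFR3 (29.5 RPKM) and FGFR4 (25.4 RPKM), the ephrin-B receptor EPHB4 (27.8 RPKM), the Wnt5a receptor ROR2 (17.8 RPKM) and the collagen receptor DDR2 (13.6 RPKM). FGFR1 was thus at the floor in cells in which FGFR3 and FGFR4 were among the most abundant receptors.

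**Figure D1:**
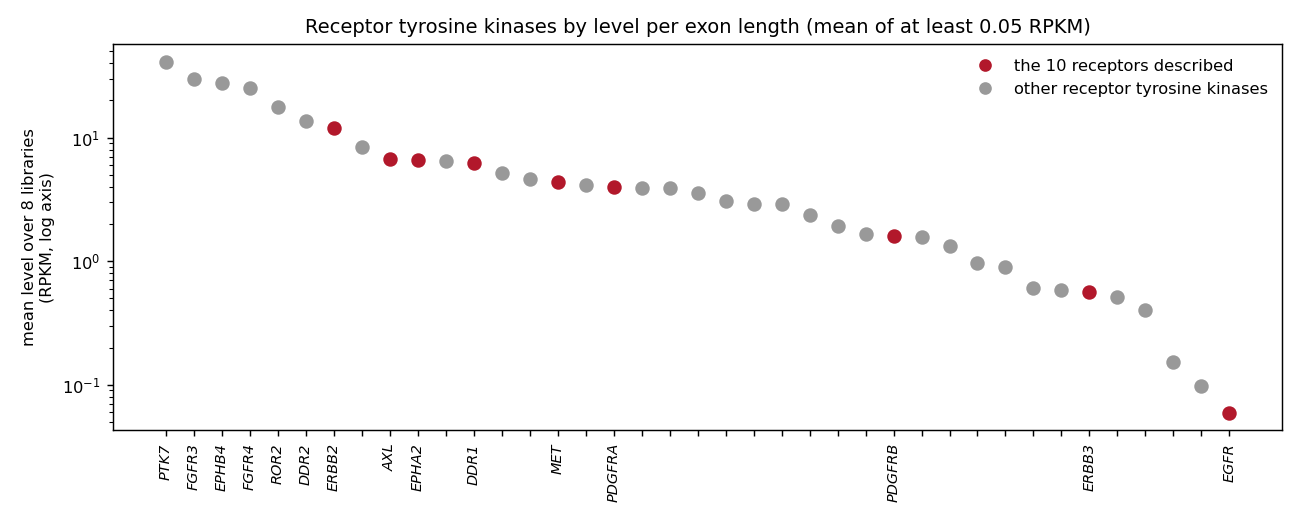
Mean level of the 39 receptor tyrosine kinases with at least 0.05 RPKM, on a log axis, ordered by level; red points are the receptors described here and grey points the others, and the names are those of receptors given in the text beside this plot. ERBB2 leads the red points at 11.9 RPKM, behind 6 other receptors, and EGFR is last at 0.0592 RPKM.

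Each mutant was set against GFP, and the mutants against each other, with edgeR's quasi-likelihood test over the 13213 genes that passed a filter on low counts, and calls were made below an adjusted p of 0.05 (Benjamini-Hochberg). FGFR1 did not pass the filter, and EGFR passed only through its R248Q libraries, so 9 of the 10 receptors were tested. In R273H against GFP 1 receptor, PDGFRB, was called higher, where 0.757% of all tested genes were. In R248Q 1 receptor, MET, was called higher (4.88% of all genes), and in R175H 2 receptors, MET and AXL, were called higher (6.39% of all genes). The lower calls numbered 0 in each mutant, where 0.25% of all genes in R273H, 1.44% in R248Q and 4.59% in R175H were called lower. At an unadjusted p below 0.05 edgeR had 0 lower receptors in R273H, 0 in R248Q and 1, EPHA2, in R175H, and DESeq2 and limma-voom called 0 lower in each. The 3 comparisons share the GFP libraries and are therefore not independent.

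Between mutants, AXL was called lower in R248Q than in R175H (1 of 9 tested receptors, with 3.95% of all genes lower). In R273H against R175H AXL was called lower (2.22% of all genes) and EPHA2 higher (1.41% of all genes). The higher calls in R248Q against R175H numbered 0, where 3.22% of all genes were higher. There edgeR had 1 receptor, EPHA2, at an unadjusted p below 0.05, and DESeq2 and limma-voom called 0. R273H and R248Q did not differ at the threshold in any tested receptor, where 0.00757% of all genes were called higher and 0.144% lower in R273H. EdgeR had 0 receptors at an unadjusted p below 0.05 in either direction in that pair, and DESeq2 and limma-voom called 0.

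**Figure D2:**
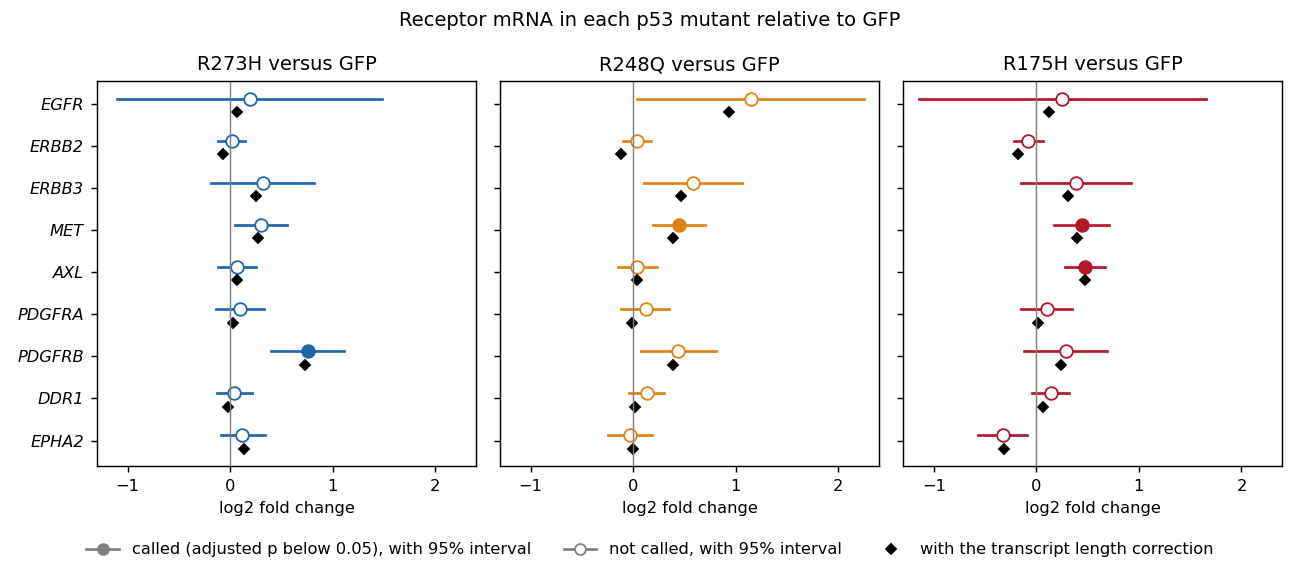
Log2 fold change of the 9 tested receptors in each mutant relative to GFP, with the 95% interval as a line; filled circles were called, and black diamonds give the value with the transcript length trend removed. The filled points are PDGFRB in R273H (0.76), MET in R248Q (0.45), and MET (0.44) and AXL (0.47) in R175H.

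The promoters of the 4 receptors that were called in any comparison are printed to show the sequence next to their annotated starts. Each is the 250 bases before the start in RefSeq on GRCh38.p14, 5′ to 3′ on the gene's own strand, whereas the counts were made on hg19. Capitals mark the GC box GGGCGG, the core recognised by SP1 factors, on either strand.
MET, chr7:116671946-116672195 (+ strand): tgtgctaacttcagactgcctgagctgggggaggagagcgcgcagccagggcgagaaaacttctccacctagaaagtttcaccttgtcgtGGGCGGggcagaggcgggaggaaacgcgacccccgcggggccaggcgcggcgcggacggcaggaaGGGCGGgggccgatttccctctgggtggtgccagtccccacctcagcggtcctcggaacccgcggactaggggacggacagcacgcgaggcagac
AXL, chr19:41218973-41219222 (+ strand): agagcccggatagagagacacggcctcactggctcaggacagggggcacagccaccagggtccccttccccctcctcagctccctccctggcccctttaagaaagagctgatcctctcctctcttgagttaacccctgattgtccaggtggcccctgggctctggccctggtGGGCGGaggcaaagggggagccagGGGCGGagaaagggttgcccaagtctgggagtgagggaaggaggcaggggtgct
PDGFRB, chr5:150155846-150156095 (− strand): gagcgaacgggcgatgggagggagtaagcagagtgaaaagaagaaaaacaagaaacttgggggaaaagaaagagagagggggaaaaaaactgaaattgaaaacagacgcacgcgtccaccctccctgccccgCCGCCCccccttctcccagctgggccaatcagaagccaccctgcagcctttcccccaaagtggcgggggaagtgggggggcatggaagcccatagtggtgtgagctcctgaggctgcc
EPHA2, chr1:16156070-16156319 (− strand): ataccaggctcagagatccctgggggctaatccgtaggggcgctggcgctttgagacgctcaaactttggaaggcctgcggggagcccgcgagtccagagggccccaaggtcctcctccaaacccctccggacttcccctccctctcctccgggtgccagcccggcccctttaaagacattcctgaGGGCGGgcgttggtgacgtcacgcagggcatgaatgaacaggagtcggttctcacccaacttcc

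The MET and AXL windows held 2 GC boxes each, and the PDGFRB and EPHA2 windows 1 each. A GC box was present in 42.6% of the 35116 promoter windows of this length in the table. The TATA box TATAAA (10.7% of windows), the AP-1 site TGANTCA (6.57%) and the hypoxia response element core ACGTG (18.5%), searched on both strands, had 0 matches in the 4 windows. These counts describe letters in a window and say nothing of factors bound there.

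Among the ERBB receptors, the family of EGF-like ligands and neuregulins, none was called in any comparison. ERBB2, which has no known ligand and signals by pairing with its relatives, had 127 and 123 CPM in R273H, 126 and 128 CPM in R248Q, 124 and 110 CPM in R175H, and 123 and 124 CPM in GFP. Its libraries lay close together in every group, with R175H replicate 2 the lowest. The log2 fold change of ERBB2 against GFP was 0.02 in R273H (95% interval -0.12 to 0.15), 0.04 in R248Q (-0.10 to 0.17) and -0.08 in R175H (-0.22 to 0.06). As folds, these intervals run between 0.857 and 1.13.

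ERBB3, a neuregulin receptor with a nearly inactive kinase, had 4.09 and 5.98 CPM in R273H, 5.45 and 6.68 CPM in R248Q, 6.05 and 4.71 CPM in R175H, and 4.01 and 4.10 CPM in GFP. Both GFP libraries were at the low end, overlapping with R273H but not with R248Q or R175H. The log2 fold change of ERBB3 was 0.58 ± 0.23 in R248Q (SE, 95% interval 0.10 to 1.06) and did not pass edgeR's adjusted threshold (adjusted p = 0.14). Its values of 0.32 ± 0.24 in R273H (SE, edgeR adjusted p = 0.62) and 0.39 ± 0.25 in R175H (SE, edgeR adjusted p = 0.36) did not pass either.

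EGFR, the founding member of the family, was counted 9 and 5 times in R273H, 14 and 14 times in R248Q, 3 and 7 times in R175H, and 3 and 7 times in GFP. The R248Q libraries were the highest, without overlap with any other group, and R273H, R175H and GFP overlapped. Relative to GFP, EGFR had a log2 fold change of 1.15 ± 0.52 in R248Q (SE, 95% interval 0.04 to 2.25, edgeR adjusted p = 0.21), and it reached the test only because of those R248Q counts. At a mean of 0.0592 RPKM, EGFR stood below TEK (0.154 RPKM) in the order of receptors.

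MET, the receptor for hepatocyte growth factor, was higher in 2 mutants. MET had 29.1 and 31.6 CPM in R273H, 35.3 and 31.6 CPM in R248Q, 37.6 and 29.7 CPM in R175H, and 22.4 and 26.8 CPM in GFP. Every mutant library was above both GFP libraries, and the mutants lay close together. MET rose in R248Q by a log2 fold change of 0.45 ± 0.12 (SE, 1.36-fold, 95% interval 0.19 to 0.70, edgeR adjusted p = 0.035). In R175H MET rose by 0.44 ± 0.13 (SE, 1.36-fold, 95% interval 0.17 to 0.71, edgeR adjusted p = 0.034). In R273H the value was 0.30 ± 0.12 (SE, 95% interval 0.05 to 0.56) and was not called (edgeR adjusted p = 0.30). MET did not differ at the threshold between mutants, with -0.14 in R273H against R248Q (95% interval -0.38 to 0.09), -0.14 in R273H against R175H (-0.39 to 0.12) and 0.01 in R248Q against R175H (-0.24 to 0.25). The R248Q call was lost without GFP replicate 1 (0.32), R248Q replicate 1 (0.37), R248Q replicate 2 (0.53), R273H replicate 1 (0.45) or R273H replicate 2 (0.44). The R175H call was lost without GFP replicate 1 (0.31), R175H replicate 1 (0.27), or any single library of R248Q or R273H (0.44 each time). Without GFP replicate 2, MET was also called in R273H (0.44). DESeq2 called MET in neither mutant, with values of 0.44 in both.

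The tested genes most like MET over the 8 libraries, among 10849 with a mean of at least 5 CPM, were ABCC4, a transporter of cyclic nucleotides and drugs, and TP53BP2, which encodes a p53-binding protein, each with a Pearson correlation of log2 CPM of 0.968. ABCC4 had 38.8 and 38.3 CPM in R273H, 41.2 and 40.4 CPM in R248Q, 42.1 and 37.7 CPM in R175H, and 32.6 and 36.2 CPM in GFP. As for MET, GFP replicate 1 was the lowest and R175H replicate 1 the highest library. The correlation of 90 genes with MET was at least 0.9, and the points share depth, groups and the gap between the GFP libraries.

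AXL, a TAM receptor that binds GAS6 and is known for its role in mesenchymal and drug-resistant tumour cells, was called against GFP in R175H and not in R273H or R248Q. AXL had 33.2 and 32.0 CPM in R273H, 31.3 and 32.6 CPM in R248Q, 45.3 and 41.5 CPM in R175H, and 30.2 and 32.0 CPM in GFP. The R175H libraries stood above the other 6, which overlapped. In R175H AXL rose relative to GFP by a log2 fold change of 0.47 ± 0.09 (SE, 1.39-fold, 95% interval 0.28 to 0.67, edgeR adjusted p = 0.0029). Against GFP its value was 0.07 in R273H (95% interval -0.12 to 0.25, edgeR adjusted p = 0.80) and 0.04 in R248Q (95% interval -0.15 to 0.23, edgeR adjusted p = 0.84). The difference itself was also called: AXL was lower in R248Q than in R175H by -0.44 ± 0.09 (SE, edgeR adjusted p = 0.0056) and lower in R273H than in R175H by -0.41 ± 0.09 (SE, edgeR adjusted p = 0.013). The call of AXL in R175H against GFP was lost without R175H replicate 1 (0.42) and held under the other 18 alternatives. The call between R248Q and R175H was lost without R175H replicate 1 (-0.38), R248Q replicate 1 (-0.40) or R248Q replicate 2 (-0.46). The call between R273H and R175H was lost without R175H replicate 1 (-0.35), R175H replicate 2 (-0.48), R273H replicate 1 (-0.43) or R273H replicate 2 (-0.38), and by DESeq2 (-0.41).

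The genes most like AXL were EGLN1, an oxygen-sensing prolyl hydroxylase, with a Pearson correlation of 0.994, and VEGFA, the vascular growth factor, with 0.993. EGLN1 had 87.1 and 84.8 CPM in R273H, 83.2 and 89.2 CPM in R248Q, 159 and 146 CPM in R175H, and 79.1 and 85.7 CPM in GFP. VEGFA had 99.0 and 94.0 CPM in R273H, 91.8 and 90.4 CPM in R248Q, 172 and 151 CPM in R175H, and 87.2 and 93.1 CPM in GFP. In both genes, as in AXL, the R175H libraries stood apart from the other 6, so the correlation restates that gap, and 240 genes reached at least 0.9.

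**Figure D3:**
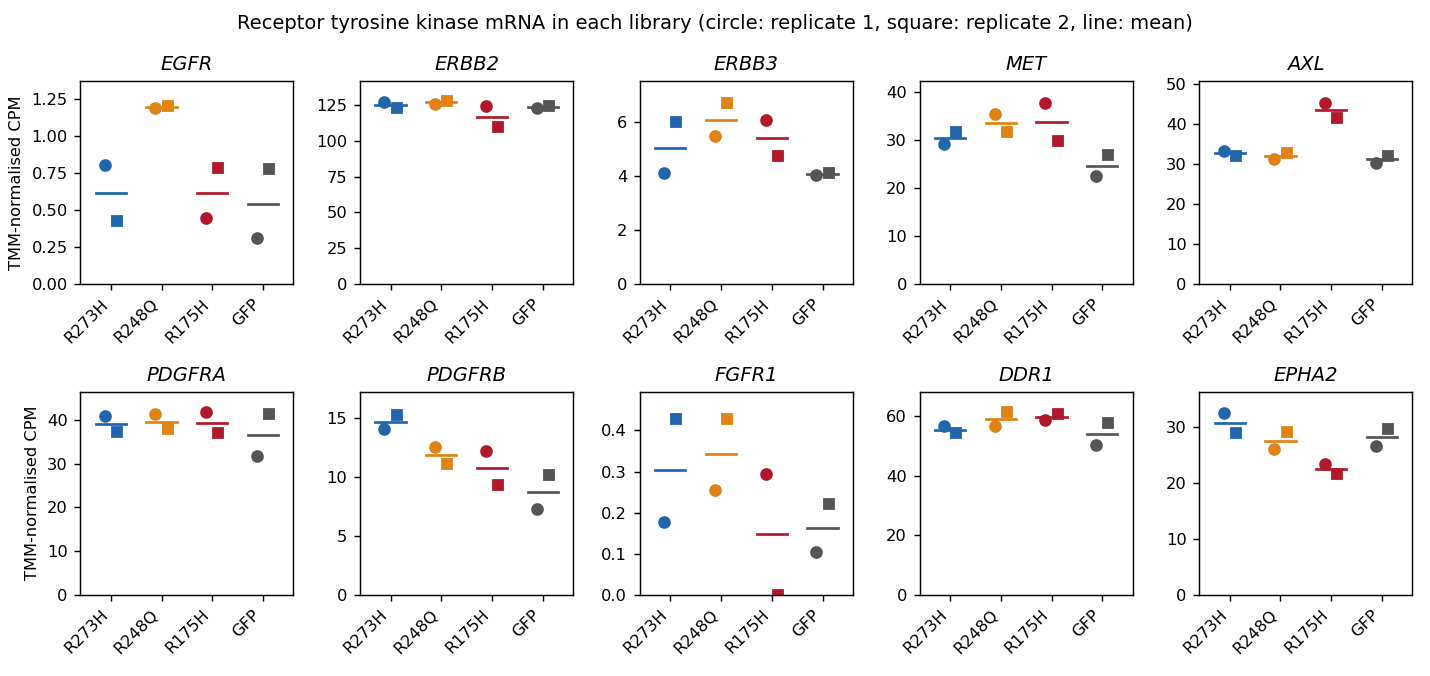
TMM-normalised CPM of each of the 10 receptors in every library, with circles for replicate 1, squares for replicate 2 and a line at the mean of each group; each panel has its own axis from 0. AXL was apart in R175H (45.3 and 41.5 CPM), PDGFRB was highest in R273H (14.1 and 15.3 CPM), and FGFR1 and EGFR stayed at or below 1.2 CPM.

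The platelet-derived growth factor receptors, known from mesenchymal cells, were both detected, PDGFRA at a mean of 3.98 RPKM and PDGFRB at 1.61 RPKM. PDGFRB had 14.1 and 15.3 CPM in R273H, 12.6 and 11.1 CPM in R248Q, 12.2 and 9.31 CPM in R175H, and 7.30 and 10.2 CPM in GFP. The R273H libraries were above the other 6 without overlap, whereas R175H overlapped with GFP. PDGFRB rose in R273H by a log2 fold change of 0.76 ± 0.17 (SE, 1.69-fold, 95% interval 0.40 to 1.11, edgeR adjusted p = 0.036). It was not called in R248Q (0.44 ± 0.17, edgeR adjusted p = 0.14) or in R175H (0.29 ± 0.19, edgeR adjusted p = 0.36; SE). The difference between R273H and the other mutants did not pass the threshold, with 0.31 against R248Q (95% interval 0.00 to 0.63, edgeR adjusted p = 0.62) and 0.47 against R175H (95% interval 0.12 to 0.82, edgeR adjusted p = 0.14). Removal of any of the following ended the call in R273H: GFP replicate 1 (0.53), either R175H library or either R248Q library (0.76 each time), R273H replicate 1 (0.81), or R273H replicate 2 (0.70). In PDGFRB the log2 difference of GFP replicate 1 minus GFP replicate 2 was -0.47. Neither DESeq2 (0.75) nor library size alone (0.75) called it. Without GFP replicate 2 PDGFRB was called in R248Q too (0.70), and without either GFP library it was called higher in R273H than in R175H (0.47 each time).

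PDGFRA had 41.0 and 37.4 CPM in R273H, 41.4 and 38.0 CPM in R248Q, 41.8 and 37.1 CPM in R175H, and 31.9 and 41.5 CPM in GFP. The mutants lay within the span of the GFP libraries, apart from R175H replicate 1 just above it. Its log2 fold change against GFP was 0.10 in R273H (95% interval -0.14 to 0.33), 0.12 in R248Q (-0.12 to 0.35) and 0.10 in R175H (-0.15 to 0.35), and none was called. Without GFP replicate 2, the higher of the GFP libraries, PDGFRA was called in each mutant (0.30 in R273H, 0.32 in R248Q and 0.30 in R175H). Among the genes most like PDGFRB was the phosphatase gene PTPN9 (Pearson correlation 0.960), and 20 genes reached at least 0.9. PTPN9 had 68.7 and 68.6 CPM in R273H, 67.8 and 66.8 CPM in R248Q, 66.4 and 62.9 CPM in R175H, and 60.4 and 63.2 CPM in GFP, a narrow range in which R273H was highest.

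FGFR1, a receptor for fibroblast growth factors, was counted 2 and 5 times in R273H, 3 and 5 times in R248Q, 2 and 0 times in R175H, and 1 and 2 times in GFP. With 3 counts taken as the floor of detection (0.336 CPM in R175H replicate 2, where it had none), the groups were not distinguishable at this depth, and no fold is given.

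EPHA2, which binds ephrin-A ligands on neighbouring cells, was lowest in R175H. EPHA2 had 32.4 and 28.8 CPM in R273H, 26.0 and 29 CPM in R248Q, 23.3 and 21.5 CPM in R175H, and 26.6 and 29.6 CPM in GFP. The R175H libraries were below the other 6, which overlapped. EPHA2 was higher in R273H than in R175H by a log2 fold change of 0.45 ± 0.11 (SE, 1.37-fold, 95% interval 0.22 to 0.68, edgeR adjusted p = 0.029). Against GFP, EPHA2 had -0.33 ± 0.11 in R175H (SE, 95% interval -0.57 to -0.09), which missed the threshold (edgeR adjusted p = 0.073) and passed it without GFP replicate 1 (-0.41). The value of R248Q against R175H was 0.30 ± 0.11 (SE, edgeR adjusted p = 0.12) and passed without either GFP library (0.30 each time). The call between R273H and R175H was lost without R175H replicate 1 (0.50), R175H replicate 2 (0.39), R273H replicate 1 (0.37) or R273H replicate 2 (0.53), and by DESeq2 (0.45).

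DDR1, a collagen receptor of epithelial and tumour cells, had 56.6 and 54.5 CPM in R273H, 56.8 and 61.5 CPM in R248Q, 58.6 and 60.6 CPM in R175H, and 50.5 and 57.8 CPM in GFP. R175H lay just above GFP, and R273H and R248Q overlapped with it. The log2 fold change of DDR1 was 0.04 in R273H (95% interval -0.13 to 0.21), 0.13 in R248Q (-0.04 to 0.30) and 0.14 in R175H (-0.04 to 0.32) relative to GFP, and none was called. Without GFP replicate 2 DDR1 was called in R248Q (0.23) and in R175H (0.24).

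**Figure D4:**
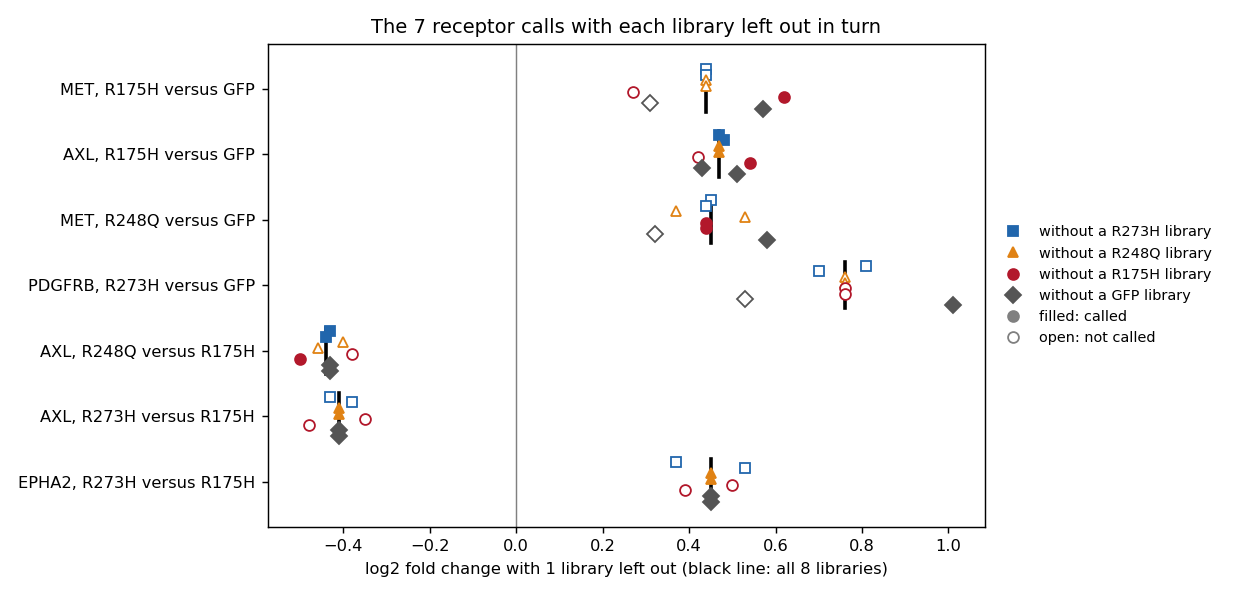
Log2 fold change of the 7 called receptor differences with each library left out in turn (1 point per library, placed by the value), a black line marking the value with all 8 libraries; filled points were still called. All points stay on the side of 0 of their line, AXL in R175H against GFP has 1 open point (0.42), and PDGFRB in R273H against GFP has 7.

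Of 48 other receptor tyrosine kinases 29 were tested. Relative to GFP, 1 of them rose in R273H, 5 rose in R248Q, and 9 rose and 1 fell in R175H. Over all genes tested the share called higher was 0.757% in R273H, 4.88% in R248Q and 6.39% in R175H. The share called lower was 0.25% in R273H, 1.44% in R248Q and 4.59% in R175H. DESeq2 called 1 of these receptors higher in R273H, 3 in R248Q and 8 in R175H, and 0 lower in R175H, while limma-voom called as many as edgeR. Their median log2 fold change was 0.12 in R273H (0.00 over all genes), 0.11 in R248Q (-0.01 over all genes) and 0.21 in R175H (0.01 over all genes). At an unadjusted p below 0.05 edgeR had 1 lower in R273H and 3 lower in R248Q, and DESeq2 and limma-voom called 0 lower in both. Without GFP replicate 1, of the 30 then tested, 1 was higher in R273H (median 0.06), 2 were higher and 1 lower in R248Q (median 0.06), and 7 were higher and 1 lower in R175H (median 0.09). With the transcript length trend removed, 3 were higher in R273H, and 4 were higher and 1 lower in R248Q. In R175H 8 were then higher and 3 lower. Over all genes, the lower calls in R175H against GFP also rose with that correction, from 607 to 994, while the higher calls moved less. The shares over all genes printed here belong to the uncorrected edgeR fit of all 8 libraries. They are therefore no background for the counts by other tools or settings.

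IGF1R, the receptor of insulin-like growth factors, had 45.2 and 44.4 CPM in R273H, 46.5 and 51.8 CPM in R248Q, 48.5 and 44.2 CPM in R175H, and 27.7 and 34.3 CPM in GFP. All mutant libraries exceeded both GFP libraries. IGF1R rose by a log2 fold change of 0.54 ± 0.10 in R273H (edgeR adjusted p = 0.016), 0.67 ± 0.10 in R248Q (edgeR adjusted p = 0.00068) and 0.58 ± 0.11 in R175H (edgeR adjusted p = 0.0023; SE). The R273H call was lost without R273H replicate 1 (0.52) or R273H replicate 2 (0.55), and in a fit of the R273H and GFP libraries alone, the only groups compared (0.53). The other 2 calls passed the threshold in all alternatives run, with values as low as 0.37 in R248Q and 0.38 in R175H where the length trend was removed and GFP replicate 1 left out. DDR2, a collagen receptor related to DDR1, had 144 and 140 CPM in R273H, 146 and 151 CPM in R248Q, 181 and 178 CPM in R175H, and 98.3 and 131 CPM in GFP. R175H was highest without overlap. DDR2 rose by 0.65 ± 0.09 in R175H (SE, edgeR adjusted p = 0.00029) and by 0.38 ± 0.09 in R248Q (SE, edgeR adjusted p = 0.020). The R248Q call was lost without GFP replicate 1 (0.19), R248Q replicate 1 (0.41) or R248Q replicate 2 (0.36), in a fit of only the groups compared (0.38), and with the length trend removed and GFP replicate 1 left out (0.10). The R175H call passed throughout, with 0.43 in that last setting. EPHA3, an ephrin-A receptor like EPHA2, rose in R175H by 0.59 ± 0.11 (SE, edgeR adjusted p = 0.0025), with 32.8 and 31.3 CPM in R175H against 19.8 and 22.7 CPM in GFP, where EPHA2 had a value below 0. The other calls, named here after their values were seen, were ERBB4, FGFR2 and LMTK2 in R248Q and ERBB4, FGFR2, INSR, NTRK2, PTK7 and ROR1 (higher) and LTK (lower) in R175H.

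Of 29 listed ligand genes 16 were tested. The list held no collagens, which bind DDR1, and was not confined to ligands of the 10 receptors. In R273H 0 were called, where 0.757% of all genes were higher and 0.25% lower. In R248Q 0 rose and 1 fell, beside 4.88% of all genes higher and 1.44% lower. In R175H 0 were called, where 6.39% of all genes were higher and 4.59% lower. The median log2 fold change was -0.05 in R273H, 0.01 in R248Q and 0.09 in R175H. At an unadjusted p below 0.05 edgeR had 1 ligand higher and 1 lower in R273H, and 0 higher and 2 lower in R175H, while DESeq2 and limma-voom called 0 in both. In R248Q DESeq2 called 0 lower and limma-voom 1. EFNA3, an ephrin-A ligand that EPHA2 can bind, had 19.6 and 22.6 CPM in R273H, 20.5 and 22.1 CPM in R248Q, 31.4 and 32.2 CPM in R175H, and 28.8 and 27.4 CPM in GFP. R273H and R248Q were below the other groups without overlap. EFNA3 fell in R248Q relative to GFP by 0.40 on the log2 scale (SE 0.10, edgeR adjusted p = 0.026), a call lost without GFP replicate 1 (-0.36), R248Q replicate 1 (-0.34) or R248Q replicate 2 (-0.45), with the length trend removed (-0.28), and by DESeq2 or in a fit of only the groups compared (-0.40 each). The values were -0.41 ± 0.10 in R273H (SE, edgeR adjusted p = 0.067) and 0.18 ± 0.10 in R175H (SE, edgeR adjusted p = 0.27).

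All 29 adaptor and proximal signalling genes were tested. In R273H 0 were called, beside 0.757% of all genes higher and 0.25% lower. In R248Q 2 rose (GAB1 and PIK3R1) and 0 fell, beside 4.88% of all genes higher and 1.44% lower. In R175H 2 rose (GAB2 and PIK3R1) and 0 fell, beside 6.39% of all genes higher and 4.59% lower. DESeq2 called 1 higher in R248Q and 0 in R175H, and limma-voom 2 in each. In R175H edgeR had 0 lower, with 3 lower at an unadjusted p below 0.05, and DESeq2 called 0 and limma-voom 1 lower. In R248Q edgeR had 1 lower at an unadjusted p below 0.05, and DESeq2 and limma-voom called 0 lower. The median log2 fold change was 0.02 in R273H, 0.04 in R248Q and 0.06 in R175H. In R273H edgeR had 1 higher and 0 lower at an unadjusted p below 0.05, and DESeq2 and limma-voom called 0. PIK3R1, a regulatory subunit of PI3K, rose by a log2 fold change of 0.36 ± 0.07 in R248Q (SE, edgeR adjusted p = 0.0043) and 0.27 ± 0.07 in R175H (SE, edgeR adjusted p = 0.026). Neither PIK3R1 call held with the length trend removed (0.19 in R248Q and 0.16 in R175H). The R175H call was also lost by DESeq2 and in a fit of only the groups compared (0.26 each). The R248Q call was lost without R248Q replicate 1 (0.35) or replicate 2 (0.38), and the R175H call without R175H replicate 1 (0.28), R175H replicate 2 (0.25), or either R248Q library (0.26). GAB1, a docking protein of MET, rose in R248Q by 0.47 ± 0.13 (SE, edgeR adjusted p = 0.036), a call lost without any 1 library other than GFP replicate 2 (0.31 without GFP replicate 1, 0.43 and 0.52 without either R248Q library, and 0.47 without each R273H or R175H library). DESeq2 and a fit of only the groups compared did not call GAB1 either (0.47 each), nor did the fit with the length trend removed (0.33). Its relative GAB2 rose in R175H by 0.77 ± 0.21 (SE, edgeR adjusted p = 0.029), a call lost without GFP replicate 1 (0.42), R175H replicate 1 (0.69), R175H replicate 2 (0.87) or either R248Q library (0.77), and by DESeq2 or in a fit of only the groups compared (0.77 each).

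Of 22 genes that restrain receptors or send them to degradation 21 were tested. In R273H 0 were called, beside 0.757% of all genes higher and 0.25% lower. In R248Q 2 rose (CBL and PTPRF), beside 4.88% of all genes higher. In R175H 1 rose (LRIG1), beside 6.39% of all genes higher. DESeq2 called 1 higher in R248Q and 0 in R175H, and limma-voom 2 and 1. The median log2 fold change was 0.05 in R273H, 0.02 in R248Q and 0.09 in R175H. In R273H edgeR had 3 higher and 0 lower at an unadjusted p below 0.05, and DESeq2 and limma-voom called 0. CBL, the ubiquitin ligase that marks activated EGFR and MET for degradation, had 53.9 and 51.7 CPM in R273H, 70.7 and 73.3 CPM in R248Q, 54.6 and 52.0 CPM in R175H, and 35.3 and 52.0 CPM in GFP. R248Q was highest without overlap. CBL rose in R248Q by 0.73 ± 0.12 (SE, edgeR adjusted p = 0.0012), which passed the threshold in all alternatives run. Its value depended on the GFP libraries, being 0.47 without GFP replicate 1, 1.03 without GFP replicate 2, and 0.36 with the length trend removed and GFP replicate 1 left out. LRIG1, a membrane inhibitor of ERBB receptors and MET, rose in R175H by 0.30 ± 0.08 (SE, edgeR adjusted p = 0.017), a call lost without R175H replicate 1 (0.31) or replicate 2 (0.29), by DESeq2 (0.30), and in a fit of only the groups compared (0.29). PTPRF, a receptor phosphatase, rose in R248Q by 0.37 ± 0.10 (SE, edgeR adjusted p = 0.034), a call lost without any 1 library other than GFP replicate 2 (0.16 without GFP replicate 1, 0.40 and 0.36 without either R248Q library, and 0.37 or 0.38 without each R273H or R175H library). DESeq2 (0.37), a fit of only the groups compared (0.37), and the fit with the length trend removed (0.22) did not call PTPRF either.

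Of 16 genes listed around receptor and integrin recycling 15 were tested. The list was not confined to the recycling machinery and held integrin genes and genes of the cytoskeleton, MYO10 and DIAPH1 among them. In R273H 0 were called, beside 0.757% of all genes higher and 0.25% lower. In R248Q 3 rose (MYO10, RAB11FIP2 and DIAPH1), beside 4.88% of all genes higher. In R175H 2 rose (MYO10 and RAB11FIP2), beside 6.39% of all genes higher. DESeq2 called 1 higher in each of R248Q and R175H, and limma-voom 3 and 2. The median log2 fold change was 0.09 in R273H, 0.06 in R248Q and 0.07 in R175H. In R273H edgeR had 4 higher and 0 lower at an unadjusted p below 0.05, DESeq2 called 1 higher and limma-voom 0. MYO10, a myosin that carries integrins into filopodia, had 400 and 388 CPM in R273H, 470 and 481 CPM in R248Q, 380 and 372 CPM in R175H, and 275 and 352 CPM in GFP. R248Q was highest and GFP lowest, without overlap. MYO10 rose in R248Q by 0.60 ± 0.08 (SE, edgeR adjusted p = 0.00024), which passed the threshold in all alternatives run. The value was 0.43 without GFP replicate 1, 0.35 with the length trend removed, and 0.28 with both. In R175H MYO10 rose by 0.27 ± 0.08 (SE, edgeR adjusted p = 0.048), a call lost without any 1 library other than GFP replicate 2 (0.10 without GFP replicate 1, 0.25 to 0.28 without the others). With the length trend removed the R175H value was 0.12 and was not called, nor was it by DESeq2 (0.26), with library size alone (0.25) or in a fit of only the groups compared (0.26). RAB11FIP2, an adaptor of RAB11 recycling vesicles, rose in R248Q by 0.56 ± 0.14 (SE, edgeR adjusted p = 0.025) and in R175H by 0.65 ± 0.15 (SE, edgeR adjusted p = 0.010). The R248Q call was lost without R248Q replicate 1 (0.62) or replicate 2 (0.51), and by DESeq2 or in a fit of only the groups compared (0.56 each), and the R175H call without R175H replicate 1 (0.49). RAB11FIP1, a related adaptor, had 53.7 and 46.8 CPM in R273H, 47.9 and 54.4 CPM in R248Q, 49.7 and 48.7 CPM in R175H, and 40.1 and 46.4 CPM in GFP, and was not called in any mutant. It was named after its values were seen. DIAPH1, a formin, rose in R248Q by 0.24 ± 0.07 (SE, edgeR adjusted p = 0.039), a call lost without any 1 library other than GFP replicate 2 (0.14 without GFP replicate 1, 0.21 and 0.28 without either R248Q library, and 0.24 without each R273H or R175H library). DESeq2 and a fit of only the groups compared did not call it (0.24 each).

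Of 25 genes known to follow ERK activity 16 were tested. Relative to GFP, 0 were called in R273H (0.757% of all genes higher and 0.25% lower) and 0 in R248Q (4.88% higher and 1.44% lower). In R175H 2 rose (MYC and SPRY1) and 1 fell (HMGA2), beside 6.39% of all genes higher and 4.59% lower. DESeq2 called 1 higher and 0 lower in R175H, and limma-voom 2 higher and 0 lower. The median log2 fold change was 0.05 in R273H, 0.10 in R248Q and 0.01 in R175H. At an unadjusted p below 0.05 edgeR had 3 higher and 1 lower in R273H and 2 higher and 0 lower in R248Q. DESeq2 and limma-voom called 0 in both. The 1 lower gene in R273H, named after its values were seen, was the ephrin receptor EPHA4. It stood on the list of other receptor tyrosine kinases too, and was the 1 lower there in R273H. MYC had 538 and 520 CPM in R273H, 498 and 488 CPM in R248Q, 556 and 545 CPM in R175H, and 454 and 476 CPM in GFP, and rose in R175H by 0.24 ± 0.05 (log2, SE, edgeR adjusted p = 0.0071). GFP was lowest and R175H highest. SPRY1, a feedback inhibitor of receptor signalling, rose in R175H by 0.58 ± 0.17 (SE, edgeR adjusted p = 0.037) with 11.2 and 9.87 CPM in R175H against 7.61 and 6.32 CPM in GFP. HMGA2, a chromatin protein, fell in R175H by 0.66 on the log2 scale (SE 0.19, edgeR adjusted p = 0.039) with 6.79 and 6.28 CPM in R175H against 9.35 and 11.2 CPM in GFP. The MYC call was lost without R175H replicate 1 (0.23) or replicate 2 (0.26), and in a fit of only the groups compared (0.23). The SPRY1 call was lost without any 1 library other than GFP replicate 1 (0.46 without GFP replicate 2, 0.50 and 0.68 without either R175H library, and 0.58 without each R273H or R248Q library), and by DESeq2 or in a fit of only the groups compared (0.58 each). The HMGA2 call was lost without GFP replicate 2 (-0.52), R175H replicate 1 (-0.71), R175H replicate 2 (-0.59) or either R248Q library (-0.66), by DESeq2 (-0.66) and limma-voom (-0.65), and in a fit of only the groups compared (-0.66).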

How the data were processed

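Messenger RNA of 8 libraries was measured, 2 for each of 3 p53 mutants and GFP. The authors made the libraries with a Kapa mRNA kit, per the labels' protocols, and used bcl2fastq and STAR 2.5 with the hg19 build, per the submitters' processing notes. The deposited values are raw counts of reads per gene, as whole numbers. How reads were counted, with which annotation and strand setting, is not given in the sources used here. Overlapping genes on opposite strands therefore cannot be told apart. The count of the introduced p53 gene and the values of another gene taken by the rule for named genes are not reported here.

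The counts were tested with edgeR 4.0.16 (R 4.3.3). The low-count filter was filterByExpr (minimum count 10, minimum total count 15), scaling was by TMM, and 1 quasi-likelihood fit covered the 8 libraries with group means (4 residual degrees of freedom, common biological coefficient of variation 4.51%). Calls use a Benjamini-Hochberg adjusted p below 0.05 over 13213 genes. SE values are the absolute log2 fold change over the square root of F. Exon lengths came from GENCODE 29, matched by symbol or RefSeq synonym for 97.3% of tested genes. RPKM used all exons of a gene. Promoters came from RefSeq, with a window found for all 4 receptors asked for. A short stretch of bases after each start was sought in the GENCODE 29 transcripts of the gene. It was found for AXL, PDGFRB and EPHA2 but not for MET. A count of 3 was taken as the floor. The intervals of 95% come from the same model. The procedure was tested on simulated counts.

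As alternatives, the tool was DESeq2 1.42.0 or limma-voom (limma 3.58.1), the scaling was by DESeq2's size factors or by library size, the filter was 1 count in all or a mean of 1 CPM, the fit held only the compared groups or a replicate block, each library was removed in turn, and a loess correction for transcript length was made (span 0.3, log2 CPM above 3), also without GFP replicate 1 or with the block. Deviations of libraries with the same number correlated at -0.09 to 0.05, so libraries were not treated as paired. Named genes were the 10 receptors, from each list the 3 called genes of lowest p against GFP, or fewer, and the 2 genes of at least 5 CPM most like each receptor called against GFP by Pearson correlation of log2 CPM (prior count 2). The receptors, lists, tests and alternatives were chosen with earlier results of these data known.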

Additional observations from a re-analysis of the deposited data

Results flagged for a closer look

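Differences between mutants were called for 2 of the receptors by edgeR's test of the difference itself. AXL was lower in R248Q than in R175H (log2 fold change -0.44, adjusted p = 0.0056) and lower in R273H than in R175H (-0.41, adjusted p = 0.013). EPHA2 was higher in R273H than in R175H (0.45, adjusted p = 0.029).

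The same test also separated mutants in 5 of the listed genes around the receptors that the naming rule picked. That rule took genes of low p against GFP in these same libraries, so their number is not an independent result. Over all genes, 3.22% were called higher and 3.95% lower in R248Q than in R175H. In R273H against R175H the shares were 1.41% higher and 2.22% lower. EFNA3, an ephrin-A ligand, was lower in R248Q than in R175H (-0.58, adjusted p = 0.0022) and lower in R273H than in R175H (-0.59, adjusted p = 0.0031). The R248Q difference was lost without R175H replicate 2 (-0.56) or R248Q replicate 1 (-0.52), and the R273H difference without R175H replicate 2 (-0.57) or R273H replicate 1 (-0.49). The collagen receptor DDR2 was lower in R273H than in R175H (-0.34, adjusted p = 0.045), a call lost without any 1 library other than the GFP libraries (-0.36 to -0.32), and with library size alone (-0.34). The ubiquitin ligase gene CBL was higher in R248Q than in R175H (0.44, adjusted p = 0.033), lost without any 1 library other than the GFP libraries (0.40 to 0.47). MYO10 was higher in R248Q than in R175H (0.34, adjusted p = 0.018), lost without any 1 library of either mutant (0.32 to 0.36). HMGA2 was higher in R248Q than in R175H (0.65, adjusted p = 0.046), lost without any 1 library of either mutant (0.59 to 0.70), by DESeq2 (0.65) and limma-voom (0.64), and with the length trend removed (0.53). Outside that rule, and named after their values were seen, edgeR called TYRO3, a TAM receptor, and CCND1, which encodes cyclin D, higher in R248Q than in R175H, and CCND1 and the adaptor gene CRK higher in R273H than in R175H.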

How the results depend on the processing

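The 7 called receptor values kept their sign in every alternative run on them, with the call kept 87 times and lost 46 times. Of the alternatives run on the 47 uncalled values, 20 gave a call and 854 did not. Among those 854, 55 gave a value of the opposite sign. With 1 library left out, the receptors called higher numbered 0 to 3 in R273H, 0 to 4 in R248Q and 0 to 4 in R175H against GFP (lower 0 to 1 in R175H), 0 to 1 in R248Q against R175H (lower 0 to 1), and 0 to 2 in R273H against R175H (lower 0 to 1). Against GFP, DESeq2 and a fit of only the groups compared called 0 receptors higher in R273H, 0 in R248Q and 1 in R175H. Library size alone called 0 in R273H. Without a filter beyond 1 count, 2 were higher in R248Q and 1 lower in R175H, and 2 were higher in R273H than in R175H. The length correction without GFP replicate 1 called 0 higher in R273H and in R248Q, and 1 higher and 1 lower in R175H, against GFP, and against R175H 1 higher in R248Q and 2 in R273H. Against R175H, DESeq2 called 0 higher and 0 lower in R273H, and only the groups compared gave 1 higher in R248Q and 2 in R273H. With the replicate block, which the data do not show to pair the libraries, the calls against GFP were 0 higher in R273H, 0 in R248Q and 1 in R175H, and 0 higher in R273H against R175H. With the block and the length correction together, the receptor counts were those of the unblocked fit. The causes were not tested.

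Over all genes, the calls with 1 library left out ranged between 2 and 1327 higher and 6 and 931 lower in R273H, 198 and 1839 higher and 27 and 1608 lower in R248Q, and 309 and 1846 higher and 154 and 1546 lower in R175H against GFP, so the shares beside the receptor counts move with them. The block gave 38 higher and 20 lower in R273H, 442 and 96 in R248Q, and 623 and 421 in R175H. With 2 libraries a group, EGFR and FGFR1 at 14 counts or fewer, and ERBB3 at 78 counts or fewer, a change in these receptors was not resolved at this depth.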
